A study of Mus musculus with 48 samples.

Results

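Interferon-stimulated genes were followed in mouse liver after 6 days of dichloroacetic acid (DCA) in drinking water. The set held 9 genes chosen by symbol, namely Isg15, Usp18, Irf7, Rsad2, Ifit1, Ifit3, Oasl2, Bst2 and Ifi44. The choice was made with earlier results of these data known. All 9 were listed among the 11275 genes of the frozen liver (FROZ) table. The table of formalin-fixed, paraffin-embedded liver (FFPE) held 6673 genes and listed 6 of the 9, without Ifit1, Ifit3 and Ifi44. Male B6C3F1 mice, 4 weeks old, were given DCA at 0, 1.0, 2.0 or 3.5 g/L. The DCA groups are named by their intake of 198, 313 or 427 mg/kg-d. There were 6 animals per dose, and each of the 24 animals gave 1 FROZ and 1 FFPE library by TempO-Seq, a targeted assay that ligates a pair of probes on each transcript. No agent other than DCA separated the groups. The tissue had been stored for decades, FROZ RNA was isolated from mixed liver lobes, and FFPE lysates came from the left lateral and right medial lobes.

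Type I interferons are secreted proteins that bind the IFNAR1 and IFNAR2 receptor chains and act through JAK kinases on a transcription factor complex that includes STAT2 and IRF9. This complex binds the interferon-stimulated response element (ISRE) and raises transcription of a large set of antiviral genes. A basal level of these genes is maintained in many healthy tissues, liver included, and both hepatocytes and resident macrophages (Kupffer cells) can express them. In bulk liver, fewer cells of a type and less RNA per cell cannot be told apart.

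Promoter windows are shown because the ISRE is the element through which these genes are classically induced, and because its core stands both in members that fell and in one that did not pass the test. RefSeq windows from 250 bases before to 50 bases after the annotated start (GRCm38.p6) were at hand for 8 of the 9 genes, and Usp18 was the gene without one. The core GAAANNGAAA was searched on both strands, so that a match on the other strand reads TTTCNNTTTC. It was present in 5 of the 8 windows (Isg15, Ifit1, Ifit3, Rsad2 and Bst2) and in 3.44% of the 32851 windows of the table. No match was found in the windows of Irf7, Oasl2 and Ifi44. The 5 windows lie at chr4:156200769-156201068 (minus strand) for Isg15, chr19:34640639-34640938 (plus) for Ifit1, chr19:34583279-34583578 (plus) for Ifit3, chr12:26456403-26456702 (minus) for Rsad2 and chr8:71537423-71537722 (minus) for Bst2. They are written 5′ to 3′ on the strand of the gene, with the core in capitals.
Isg15: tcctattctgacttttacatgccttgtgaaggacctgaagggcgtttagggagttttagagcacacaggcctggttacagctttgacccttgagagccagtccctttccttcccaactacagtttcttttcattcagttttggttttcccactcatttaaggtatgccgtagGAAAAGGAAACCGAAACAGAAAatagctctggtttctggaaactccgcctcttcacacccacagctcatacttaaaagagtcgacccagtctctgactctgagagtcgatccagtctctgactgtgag
Ifit1: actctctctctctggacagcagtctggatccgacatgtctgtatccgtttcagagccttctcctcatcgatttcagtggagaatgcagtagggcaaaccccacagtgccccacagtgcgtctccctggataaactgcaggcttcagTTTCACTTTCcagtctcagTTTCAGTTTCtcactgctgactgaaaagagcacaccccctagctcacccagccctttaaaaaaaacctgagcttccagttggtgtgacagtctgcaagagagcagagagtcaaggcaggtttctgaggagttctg
Ifit3: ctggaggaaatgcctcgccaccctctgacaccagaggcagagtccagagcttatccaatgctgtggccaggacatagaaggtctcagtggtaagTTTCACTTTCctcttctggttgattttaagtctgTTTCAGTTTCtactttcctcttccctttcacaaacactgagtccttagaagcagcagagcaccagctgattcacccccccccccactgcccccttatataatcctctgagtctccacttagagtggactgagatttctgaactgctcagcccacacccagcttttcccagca
Rsad2: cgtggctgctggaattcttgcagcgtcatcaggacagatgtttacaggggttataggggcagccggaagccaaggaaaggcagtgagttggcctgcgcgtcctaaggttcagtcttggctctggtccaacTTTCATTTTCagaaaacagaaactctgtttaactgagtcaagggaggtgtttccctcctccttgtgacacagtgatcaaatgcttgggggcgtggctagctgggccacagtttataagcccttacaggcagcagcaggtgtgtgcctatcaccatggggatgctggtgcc
Bst2: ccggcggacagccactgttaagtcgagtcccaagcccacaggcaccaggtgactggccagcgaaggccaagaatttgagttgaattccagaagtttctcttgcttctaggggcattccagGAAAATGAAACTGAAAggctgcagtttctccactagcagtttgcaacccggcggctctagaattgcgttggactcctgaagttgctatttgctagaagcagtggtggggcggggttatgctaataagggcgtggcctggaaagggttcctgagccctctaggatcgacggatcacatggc
In Isg15, 3 overlapping matches began 78, 72 and 66 bases before the start. Bst2 held 2 overlapping matches, at 130 and 124 bases before it. In Ifit1 the 2 matches began at 104 and 85 bases, and in Ifit3 at 156 and 122 bases. Rsad2 held 1 match at 120 bases. The gamma-activated element, searched as TTCNNNGAA, which is its own reverse complement, was present in 1 of the 8 windows (Bst2) and in 8.30% of all windows. These are matches of letters, and binding was not measured.

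The genes themselves lie on 8 chromosomes of the GENCODE vM21 annotation (mm10), with Ifit3 (chr19:34583531-34588731) and Ifit1 (chr19:34640871-34650009) both on chromosome 19. The others are Isg15 (chr4:156199424-156200818), Usp18 (chr6:121245906-121270917), Irf7 (chr7:141262706-141266481), Rsad2 (chr12:26442746-26456452), Oasl2 (chr5:114896936-114912234), Bst2 (chr8:71534255-71537456) and Ifi44 (chr3:151730922-151749960). Of the 50-base windows of Ifit3 transcripts, 51.2% were shared with other genes, mainly Ifit3b, so that the Ifit3 value may hold reads of its near-identical copy, which was not listed. The share was 7.13% for Ifit1, 3.96% for Isg15 and at most 0.138% for the other members. Implied depth was 6.69 to 9.84 M reads per FROZ library and 1.83 to 6.01 M reads per FFPE library. In FROZ no member was at 0 in any library, and the lowest value of a member rested on 24 reads (Oasl2 and Rsad2). Hepatocyte identity of the tissue was checked on 10 marker genes, all listed in FROZ, which summed to between 22651 and 42403 CPM in every FROZ library.

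In FROZ liver, 7 of the 9 interferon-stimulated genes fell at 313 and at 427 mg/kg-d, and none passed the test at 198 mg/kg-d. The same 7 genes were called at both doses. At 427 mg/kg-d the decreases ranged from 1.78-fold (Irf7) to 2.43-fold (Ifit1). Usp18 and Bst2 did not pass at any dose. The change was measured by limma across all listed genes on log2(CPM + 1), with the false discovery rate (FDR) of Benjamini and Hochberg under 0.05, and the 3 doses were compared with the same 6 controls. Of all genes tested, 0.443%, 6.15% and 7.33% were called lower at 198, 313 and 427 mg/kg-d. The members' median log2 fold change was -0.20, -0.72 and -0.88 at the 3 doses, beside 0.07, 0.11 and 0.10 over all genes. With libraries scaled by their median ratio, which sets the median gene near 0, the same 7 were called at 427 mg/kg-d, with Usp18 at -0.18 and Bst2 at -0.26 without a call, and Usp18 at 313 mg/kg-d was called (-0.71, limma FDR 0.0277).

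**Figure D1:**
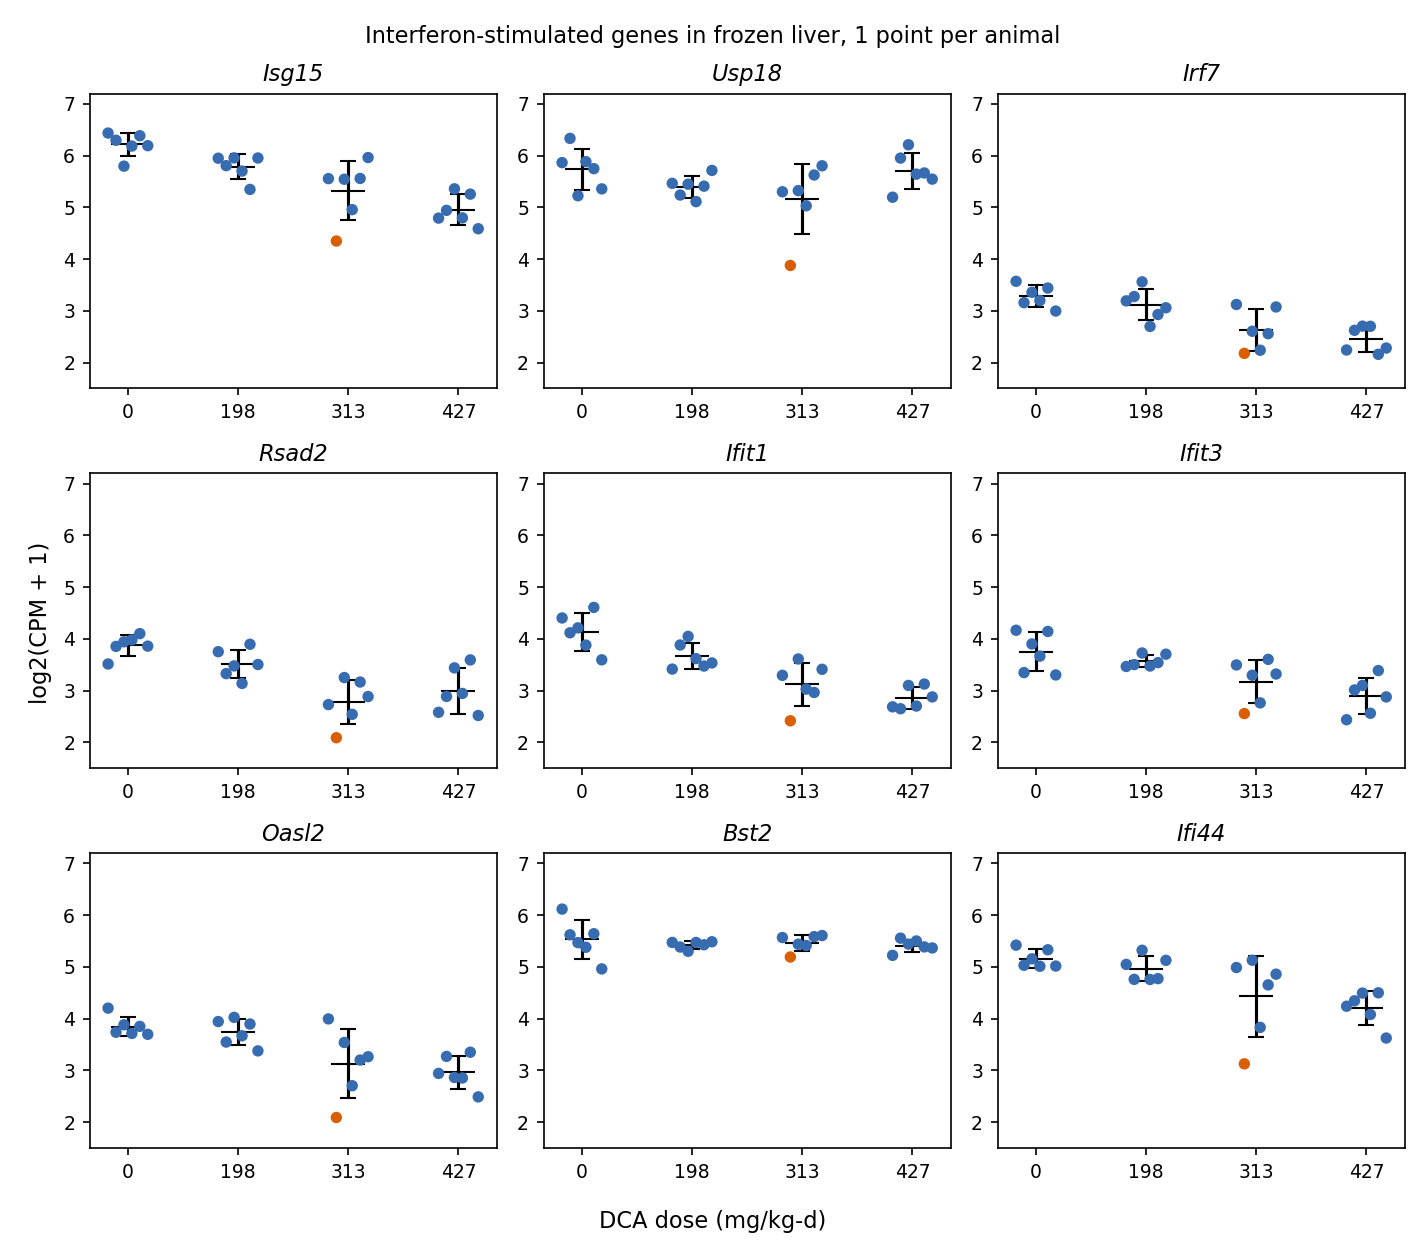
FROZ level of each gene, as log2(CPM + 1), against DCA dose in mg/kg-d. Each point is 1 animal, 6 per dose, black marks are the mean with SD, and animal 74 of the 313 mg/kg-d group is orange. Isg15, Ifit1, Irf7, Oasl2 and Ifi44 at 427 mg/kg-d lie wholly below the controls, whereas Usp18 and Bst2 overlap them.

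Isg15 encodes a ubiquitin-like protein that is attached to other proteins during the interferon response. Its control values ran from 54.5 CPM to 85.5 CPM with a median of 74.8 CPM. The medians were 57.9 CPM at 198 mg/kg-d (39.7 to 61.1), 45.8 CPM at 313 mg/kg-d (19.4 to 61.3) and 28.3 CPM at 427 mg/kg-d (23.02 to 40.0). Every animal at 427 mg/kg-d was below every control, while at 313 mg/kg-d the highest animal (61.3 CPM) was above 1 control (54.5 CPM). The mean log2(CPM + 1) was 6.21 ± 0.23 (SD, n = 6) in controls and 4.95 ± 0.30 (SD, n = 6) at 427 mg/kg-d. Fitted log2 fold changes were -0.43 (SE 0.19, limma FDR 0.24) at 198, -0.89 (SE 0.19, FDR 8.68e-04) at 313 and -1.26 (SE 0.19, FDR 9.88e-06) at 427 mg/kg-d. Neighbouring doses were closer, with a step of -0.46 (SE 0.19, limma FDR 0.111) from 198 to 313 and of -0.37 (SE 0.19, FDR 0.315) from 313 to 427 mg/kg-d.

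Usp18 encodes the protease that removes ISG15 from its targets and restrains signalling at IFNAR2. Its control median was 55.0 CPM (36.4 to 79.6). Medians were 42.1 CPM (33.5 to 51.5) at 198, 38.7 CPM (13.7 to 54.8) at 313 and 49.3 CPM (35.6 to 73.0) at 427 mg/kg-d. All treated groups overlapped the controls, and the highest dose spanned nearly the control range. Log2 fold changes were -0.34 (SE 0.23, limma FDR 0.47), -0.58 (SE 0.23, FDR 0.063) and -0.03 (SE 0.23, FDR 0.933) at the 3 doses. The interval of the difference at 427 mg/kg-d ran from -0.50 to 0.44 (95%), so a change of the size seen in Isg15 lies outside it. From 313 to 427 mg/kg-d the value was 0.54 (SE 0.23, limma FDR 0.21).

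Irf7 encodes the transcription factor that drives expression of interferon alpha genes and is itself interferon-induced. Its control median was 8.72 CPM (6.98 to 10.9). Medians were 7.74 CPM (5.49 to 10.8) at 198, 4.99 CPM (3.52 to 7.71) at 313 and 4.51 CPM (3.47 to 5.52) at 427 mg/kg-d. No animal given the highest dose reached the lowest control. Irf7 changed by -0.66 on the log2 scale (SE 0.17, limma FDR 0.00472) at 313 and -0.84 (SE 0.17, FDR 3.80e-04) at 427 mg/kg-d. With 26 to 97 reads per library Irf7 had the lowest median read count of the members, 54 reads.

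Rsad2 encodes viperin, a radical SAM enzyme that produces a chain-terminating nucleotide. Its control median was 13.9 CPM (10.4 to 16.2). Medians were 10.2 CPM (7.80 to 13.9) at 198, 6.00 CPM (3.25 to 8.52) at 313 and 6.55 CPM (4.73 to 11.1) at 427 mg/kg-d. Rsad2 was the member whose 313 mg/kg-d animals were all below the controls, and at 427 mg/kg-d the ranges overlapped. Rsad2 had a log2 fold change of -1.10 (SE 0.19, limma FDR 1.05e-04) at 313 and -0.88 (SE 0.19, FDR 7.90e-04) at 427 mg/kg-d. The difference between these doses, 0.22 (SE 0.19), did not pass (limma FDR 0.592).

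Ifit1 and Ifit3 encode proteins with tetratricopeptide repeats that bind viral RNA or each other and limit its translation. The control median of Ifit1 was 16.9 CPM (11.1 to 23.4). Medians were 10.9 CPM (9.67 to 15.5) at 198, 7.98 CPM (4.34 to 11.2) at 313 and 5.92 CPM (5.27 to 7.73) at 427 mg/kg-d. The groups at 198 and 313 mg/kg-d overlapped the lowest control and the group at 427 mg/kg-d did not. The log2 fold change was -0.47 (SE 0.18, limma FDR 0.156), -1.01 (SE 0.18, FDR 1.11e-04) and -1.28 (SE 0.18, FDR 3.13e-06). Ifit1 showed the largest decrease of the 9 genes at 427 mg/kg-d.

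The control median of Ifit3 was 12.8 CPM (8.86 to 16.9), and it was 10.5 CPM (10.05 to 12.2), 8.90 CPM (4.88 to 11.2) and 6.71 CPM (4.41 to 9.46) at the 3 doses. Every treated group overlapped the controls. The log2 fold change was -0.58 (SE 0.18, limma FDR 0.0199) at 313 and -0.86 (SE 0.18, FDR 7.34e-04) at 427 mg/kg-d.

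Oasl2 belongs to the oligoadenylate synthetase family of RNA sensors. Its control median was 12.9 CPM (11.96 to 17.4). It was 12.8 CPM (9.38 to 15.3) at 198, 8.39 CPM (3.25 to 14.9) at 313 and 6.47 CPM (4.60 to 9.20) at 427 mg/kg-d. The group at 313 mg/kg-d was the most scattered, and the group at 427 mg/kg-d lay below all controls. Oasl2 had a log2 fold change of -0.72 (SE 0.21, limma FDR 0.0136) at 313 and -0.89 (SE 0.21, FDR 0.00214) at 427 mg/kg-d.

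Ifi44, an interferon-induced cytoplasmic protein, had a control median of 33.2 CPM (31.2 to 41.8). Its median was 29.2 CPM (26.0 to 38.9) at 198, 26.1 CPM (7.72 to 33.9) at 313 and 18.6 CPM (11.3 to 21.6) at 427 mg/kg-d. All animals at the highest dose were below all controls. The log2 fold change was -0.73 (SE 0.23, limma FDR 0.0208) at 313 and -0.95 (SE 0.23, FDR 0.00265) at 427 mg/kg-d.

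Bst2 encodes tetherin, a membrane protein that holds budding virions at the cell surface. Its medians were 45.7, 42.7, 44.3 and 41.6 CPM from controls to the highest dose. The controls spanned 30.1 to 68.4 CPM and the treated groups stayed inside that range, at 35.5 to 47.7 CPM. The log2 fold change at 427 mg/kg-d was -0.12 (SE 0.12, limma FDR 0.498), with a 95% interval from -0.37 to 0.13. The decreases of the 7 called members are all larger than this interval allows. Bst2 carries the ISRE core as do Isg15, Ifit1, Ifit3 and Rsad2, whereas the windows of the called Irf7, Oasl2 and Ifi44 held no match. Whether the core relates to the decrease was not tested.

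**Figure D2:**
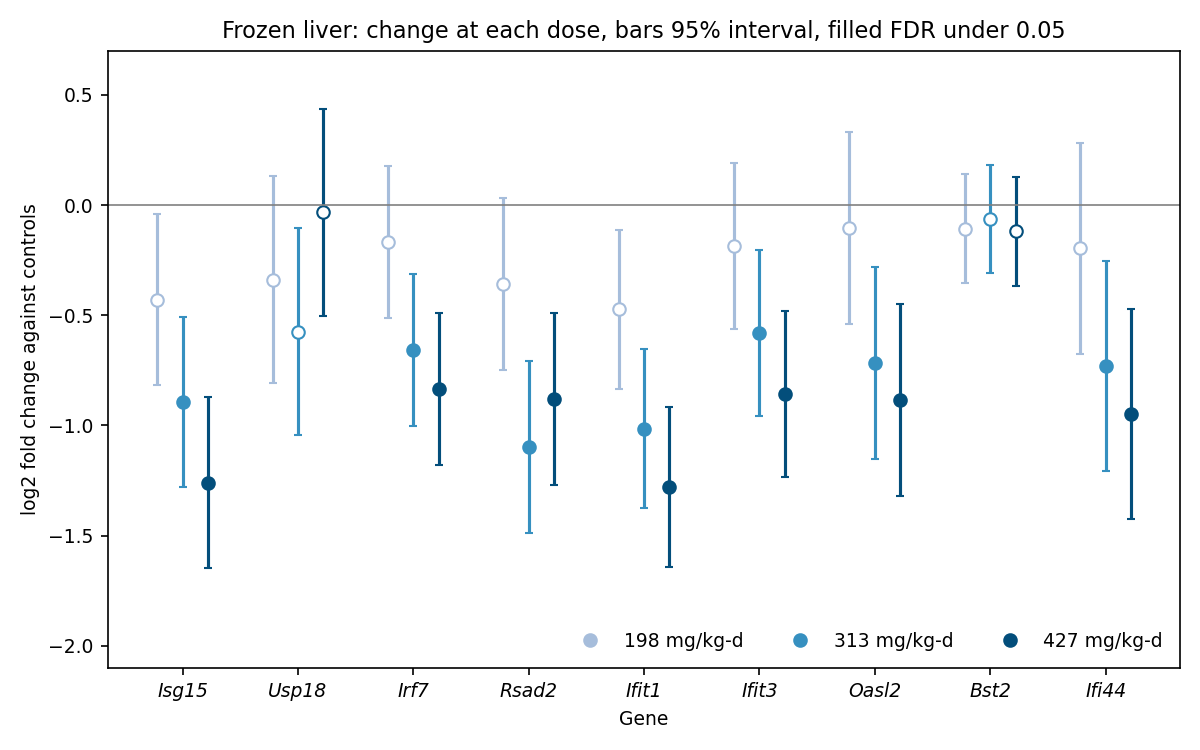
FROZ log2 fold change against the 6 controls for each gene, at 198, 313 and 427 mg/kg-d. Bars are 95% intervals from limma and filled circles passed an FDR of 0.05. At 427 mg/kg-d 7 genes lie between -0.84 and -1.28, and Usp18 and Bst2 at -0.03 and -0.12.

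With a fold change above 2 required as well, 2 members were lower at 313 mg/kg-d (Ifit1, 2.02-fold, and Rsad2, 2.14-fold), where 0.887% of all genes met both criteria. The 2 at 427 mg/kg-d were Ifit1 (2.43-fold) and Isg15 (2.39-fold), beside 1.24% of all genes, and with median-ratio scaling 5 members were above 2-fold there. For 5 members every animal at 427 mg/kg-d was below every control (Isg15, Ifit1, Irf7, Oasl2 and Ifi44), as for 3.27% of all genes. At 313 mg/kg-d the corresponding count was 1 (Rsad2), against 2.39% of all genes. The counts above 2-fold rested on few animals, since the count at 313 mg/kg-d was 0 without animal 74 and 1 without control 3, 5 or 7 or animal 76 or 77 and 3 without animal 78, and that at 427 mg/kg-d was 4 without animal 101.

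The same 7 genes had a negative linear slope on dose, beside 7.73% of all genes. Slopes per 100 mg/kg-d ran from -0.21 (Ifit3) to -0.31 (Ifit1) on the log2 scale. Group means decreased in the order of dose for Isg15, Ifit1, Ifit3, Irf7, Oasl2 and Ifi44, whereas those of Rsad2 and Usp18 were lowest at 313 mg/kg-d. Between neighbouring doses, Ifit1 (-0.54, limma FDR 0.0454) and Rsad2 (-0.74, FDR 0.0112) were lower at 313 than at 198 mg/kg-d, where 3.65% of all genes were. Rsad2 was called in all 17 alternatives and Ifit1 in 8 of them. Ifit1 was not called without animal 50, 51, 52, 53, 54, 73, 74, 76 or 77 (limma FDR 0.0509 to 0.141). The count was 4 without animal 78, and 4 with median-ratio scaling, where Irf7 and Oasl2 were called too. No member was lower at 427 than at 313 mg/kg-d by limma at an FDR of 0.05, beside 1.34% of all genes. None was lower at an unadjusted limma p under 0.05 either, a cut at which all genes were not counted. At 198 mg/kg-d, where limma called 0 members, 2 had an unadjusted p under 0.05 (Ifit1, 0.0124, and Isg15, 0.031), and an exact rank sum test also called 0 after adjustment, with 3 unadjusted.

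Animal 74 of the 313 mg/kg-d group had the lowest value of its dose for all 9 members, and the lowest of all 24 animals for 6 of them. Its Oasl2 value was 3.25 CPM, its Ifi44 value 7.72 CPM and its Usp18 value 13.7 CPM. Without it, Ifi44 was at -0.47 (limma FDR 0.0621) and Ifit3 at -0.46 (FDR 0.0659) at 313 mg/kg-d, leaving 5 members called. The exact rank sum test over all 12 animals, adjusted over all genes, also left out Ifi44 (0.0628), Ifit3 (0.124) and Oasl2 (0.124) at 313 mg/kg-d. The 7 calls at 427 mg/kg-d were made without each animal in turn as well.

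Animals also varied together within doses. With dose means removed, the 36 pairs of members had a median Pearson r of 0.57 over the 24 FROZ libraries, and all 36 were positive. The median over the pairs of 9874 genes averaging 1 CPM or more was 0.02. Without animal 74 the members' median was 0.42 and 35 pairs were positive. The pairs share libraries, so these values describe the animals and are not tests. Usp18 and Bst2, which passed at no dose in the fit of all animals on the deposited values, were among the pairs.

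**Figure D3:**
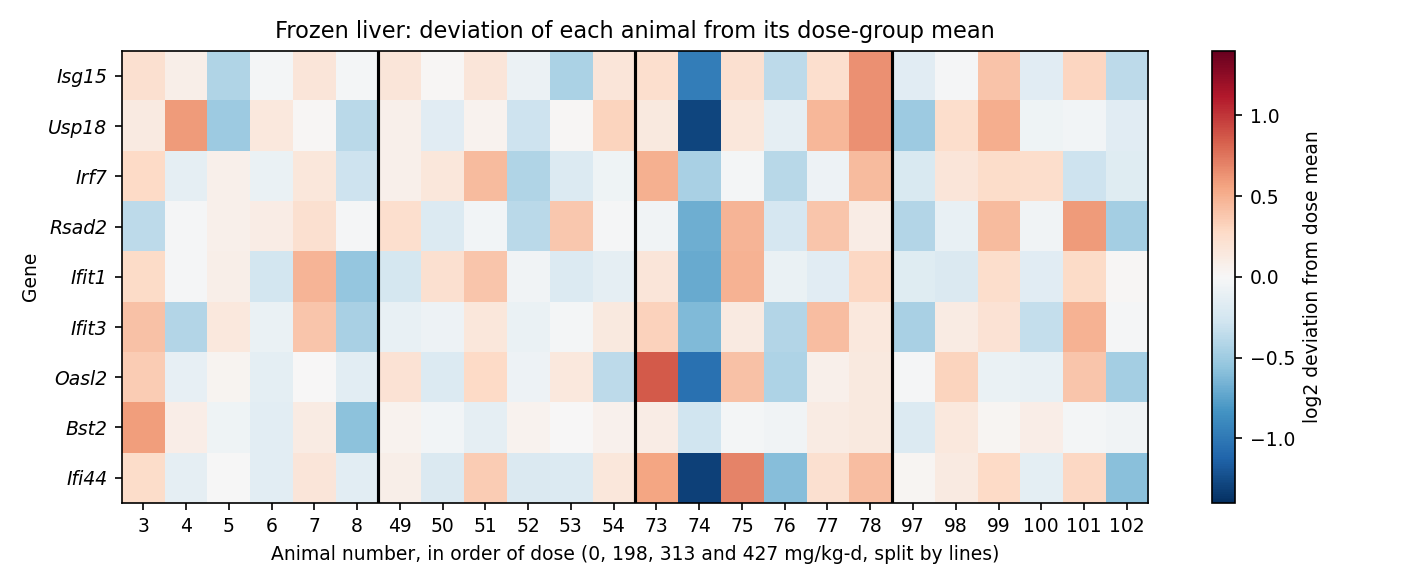
Deviation of each animal from its dose-group mean in FROZ, in log2 units, with genes in rows and the 24 animals in columns ordered by dose. Blue is below and red above the mean. Animal 74 is blue in all 9 rows.

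The genes most like the members' average over animals, dose means removed, were picked from 9865 others. The highest r was that of Ifit2 (0.87), followed by H2-T24 (0.85), Ddx60 (0.83), Apol9a (0.83), Gbp4 (0.76), Apol9b (0.75), Prorp (0.74), Gbp3 (0.74), Arf1 (0.73) and Birc2 (0.72). Ifit2 belongs to the same family as Ifit1, and Gbp3 and Gbp4 encode interferon-induced guanylate-binding proteins. Without animal 74 the values were 0.80 for Ifit2, 0.83 for Apol9a and 0.50 for Prorp.

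Other genes of the interferon pathway were taken from gene lists, and are read against all FROZ genes, of which 7.33% fell and 22.7% rose at 427 mg/kg-d and 6.15% fell and 20.5% rose at 313 mg/kg-d. The split depended on scaling, since with median-ratio scaling 12.6% fell and 12.6% rose at 427, and 10.8% fell and 10.3% rose at 313 mg/kg-d. No interferon gene itself was listed in FROZ (0 of 11, with Ifnb1 and Ifng among them). Of the receptor genes 5 of 6 were listed. Ifnar2 rose at 427 mg/kg-d from 74.2 to 96.2 CPM (means taken on the log2 scale, a change of 0.37 with SE 0.08), but did not pass with median-ratio scaling (0.23, limma FDR 0.0559), and Ifngr1 fell (-0.27, limma FDR 0.0227). Ifnar1 was at 0.10.

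Among 11 JAK, STAT and IRF genes, 2 fell at 427 mg/kg-d and none passed at 313 mg/kg-d. Irf5, which acts below Toll-like receptors, fell by 1.01 (SE 0.19) on the log2 scale, and its treated animals (0.792 to 2.39 CPM) were all below the controls (3.10 to 6.07 CPM). Stat2, a subunit of the factor that binds the ISRE, changed by -0.38 (SE 0.13, limma FDR 0.0267). Irf9, which encodes the DNA-binding subunit of that factor, was at -0.27 (limma FDR 0.0959) and did not pass. With median-ratio scaling 5 of the 11 were called lower at 427 mg/kg-d, Irf9 (-0.39, limma FDR 0.0137) among them, and 1 at 313 mg/kg-d (Irf5). Of 5 listed inhibitors 1 rose, the phosphatase gene Ptpn6 (0.51, SE 0.10), and none fell, at a background of 22.7% of genes that rose.

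The enzymes that conjugate ISG15 moved in both directions. Uba7, the activating enzyme, fell (-0.69, SE 0.17, limma FDR 0.00322), as did the ligase gene Herc6 (-0.39, SE 0.10). The conjugating enzyme gene Ube2l6 rose (0.67, SE 0.16, limma FDR 0.00169), and Trim25 was at 0.34 without passing. Of 13 listed nucleic acid sensors and adaptors, 2 fell and 3 rose at 427 mg/kg-d, the latter a share near the 22.7% of all genes. Tlr7, the endosomal receptor for single-stranded RNA, fell from 17.7 to 10.9 CPM on such means (-0.65, SE 0.14), and Ifih1, the cytosolic sensor MDA5, changed by -0.36 (SE 0.13). The adaptors Mavs (0.46, SE 0.12) and Myd88 (0.46, SE 0.12) and the receptor Tlr3 (0.36, SE 0.10) rose, and with median-ratio scaling none of these 3 passed (limma FDR 0.0549, 0.0628 and 0.0941).

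Of 59 further type I interferon-stimulated genes, 52 were listed. At 427 mg/kg-d 20 fell and 2 rose, with a median log2 fold change of -0.30, and at 313 mg/kg-d 14 fell and 4 rose. Of all genes 7.33% fell and 22.7% rose at 427, and 6.15% fell and 20.5% rose at 313 mg/kg-d. With median-ratio scaling the list had 27 that fell and 2 that rose at 427, and 19 and 0 at 313 mg/kg-d. The largest decreases were those of Apol9a (-0.96, SE 0.20), Xaf1 (-0.96, SE 0.17), Ifi204 (-0.89, SE 0.22) and Oas1g (-0.88, SE 0.25). Daxx (0.40, SE 0.09) and Znfx1 (0.68, SE 0.13) were the 2 that rose. Among 26 listed genes of the interferon gamma response and antigen presentation, 6 fell and none rose at 427 mg/kg-d, and 4 fell (Tgtp1, H2-T23, H2-K1 and Irgm1) and 1 rose (Cxcl10, 0.49, limma FDR 0.0356) at 313 mg/kg-d. With median-ratio scaling 9 fell at 427 and 6 at 313 mg/kg-d, and none rose. Those at 427 mg/kg-d were led by Gbp6 (-1.70, SE 0.31), Ifi47 (-1.07, SE 0.17), Tgtp1 (-1.01, SE 0.31) and Gbp3 (-0.53, SE 0.17), all of which encode GTPases. Ifi47 lay between 7.72 and 14.4 CPM at 427 mg/kg-d and between 19.2 and 30.2 CPM in controls, without overlap.

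**Figure D4:**
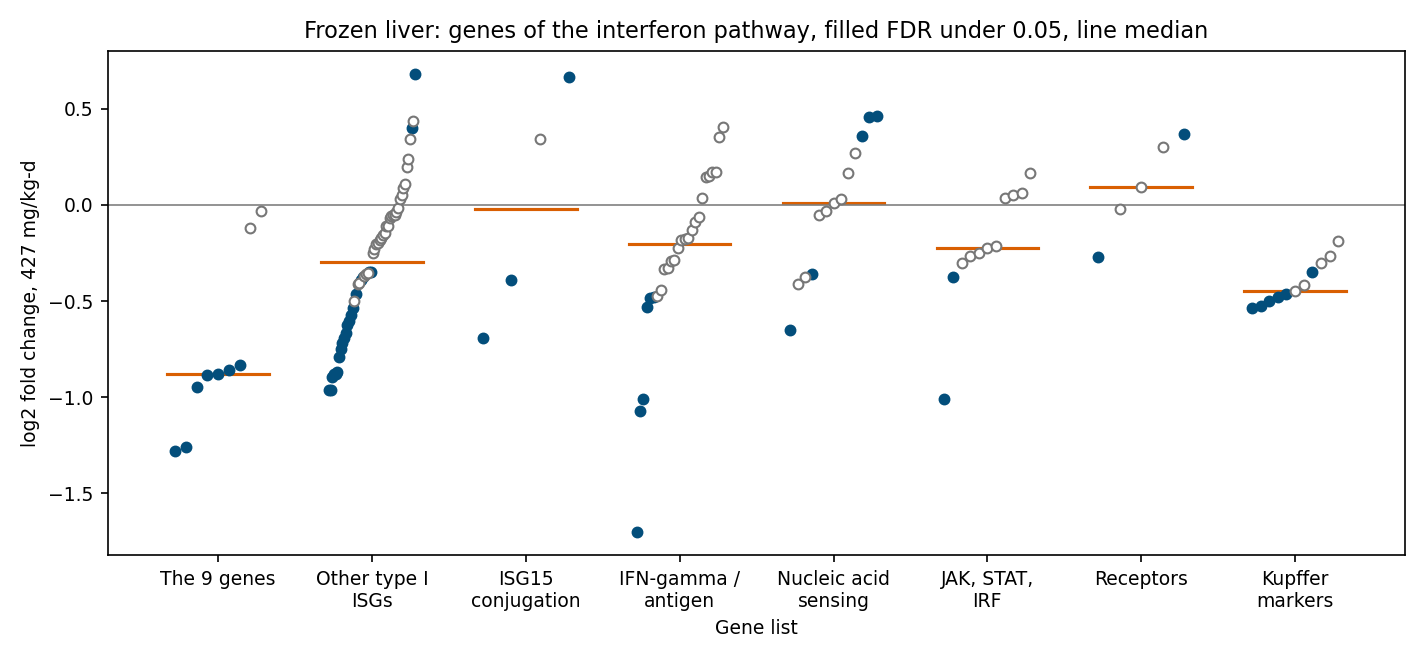
FROZ log2 fold change at 427 mg/kg-d against controls for the 9 genes and the genes of 7 lists. Each circle is a gene, filled where the FDR was under 0.05, and orange lines are medians. The members' median is -0.88 and that of the other type I interferon-stimulated genes -0.30.

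Markers of other liver cells were read beside these results. Of all FROZ genes 7.33% fell and 22.7% rose at 427 mg/kg-d. Of 13 Kupffer cell markers 11 were listed, without Timd4 and Marco. At 427 mg/kg-d 6 of them fell (led by C1qb, C1qa, Adgre1 and C1qc), with a median of -0.45, and the sum of the 11 was 158 to 230 CPM against 247 to 328 CPM in controls. Their part in the decrease of the members was not tested. At 313 mg/kg-d, where 7 members fell, none of the 11 passed and the sum was 174 to 355 CPM. Animal 74 had the highest Kupffer sum of its dose, 355 CPM, and the lowest value of its dose for every member. Animal 76 had the lowest sum of that dose, 174 CPM, and the next lowest value for every member but Ifit1. At 427 mg/kg-d animals 97 and 102 had the lowest sums (158 and 184 CPM) and the lowest value for 3 and 4 members. Animals 98 and 101, with higher sums, were lowest for 1 each. How the sums and the members relate was not tested. Plasmacytoid dendritic cell markers were not listed (0 of 6), and no listed marker of monocytes and dendritic cells (4), T and NK cells (6) or B cells (3) passed at 313 or 427 mg/kg-d. These markers were low, with control medians of their sums of 10.9 CPM, 5.71 CPM and 1.98 CPM in the same order. A change in them could therefore be missed. Of 3 listed neutrophil markers 2 rose at 313 (S100a8 and Retnlg), where 20.5% of all genes did, and 0 passed at 427 mg/kg-d. Sinusoidal endothelial markers held 1 of 10 that fell at 427 mg/kg-d (Stab2), near the share of all genes. Stellate cell markers held 2 of 8 (Dcn and Colec11) and cholangiocyte markers 0 of 3. Of 10 hepatocyte markers 3 fell (F2, Ambp and Pck1) and 1 rose (Hnf4a) at 427 mg/kg-d. With median-ratio scaling 8 of 11 Kupffer, 4 of 10 endothelial and 3 of 8 stellate markers fell at 427 mg/kg-d. So did 1 of 3 cholangiocyte and 5 of 10 hepatocyte markers, beside 12.6% of all genes. Hnf4a did not pass on that scale (limma FDR 0.0525).

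FFPE libraries from the same animals gave no called member at any dose. Of the 144 FFPE values of the 6 listed members, 13 were listed at 0, that is 9.03% beside 7.55% of all values of the table. They were 6 of Irf7, 5 of Rsad2 and 1 each of Isg15 and Usp18. Animal 49 of the 198 mg/kg-d group was at 0 for 4 of the 6 genes, and its library had 1580 genes at 0, the most of any. Depth differed between FFPE groups, with medians of 5.28, 3.38, 3.82 and 5.10 M reads from controls to the highest dose. The median number of genes at 0 was 277.5, 980.5, 630.5 and 134 in the same order. The part of depth in the members' values at 0 was not tested.

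Isg15 in FFPE ran from 21.0 to 69.2 CPM in controls (median 38.4), from 0 to 89.1 CPM at 198 (27.6), from 12.5 to 75.1 CPM at 313 (28.7) and from 11.2 to 31.6 CPM at 427 mg/kg-d (27.5). All groups overlapped. Its log2 fold change at 427 mg/kg-d was -0.72 (SE 0.77, limma FDR 1), with a 95% interval from -2.30 to 0.86 that holds the FROZ value.

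Oasl2 had an FFPE control median of 35.9 CPM (18.1 to 70.9) and was at 13.0 CPM (0.373 to 42.0) at 427 mg/kg-d. The log2 fold change was -1.58 (SE 0.68, unadjusted limma p 0.0268, FDR 0.424). Irf7 had a control median of 23.1 CPM (7.72 to 54.5), and 3 animals at 313 and 2 at 427 mg/kg-d were listed at 0. Its change at 427 mg/kg-d was -2.22 (SE 1.18, limma FDR 0.674).

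Rsad2 was between 0 and 18.5 CPM in FFPE controls and between 3.61 and 19.3 CPM at 427 mg/kg-d, a change of -0.15 (SE 0.94). Usp18 was between 16.1 and 83.3 CPM in controls and between 25.4 and 84.3 CPM at 427 mg/kg-d, a change of -0.03 (SE 0.71). Bst2 was at 68.9 CPM or above in every FFPE library, with medians of 83.4, 103, 108 and 84.2 CPM in order of dose. It was the member with the smallest FFPE error, and its change at 427 mg/kg-d was -0.13 (SE 0.29).

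**Figure D5:**
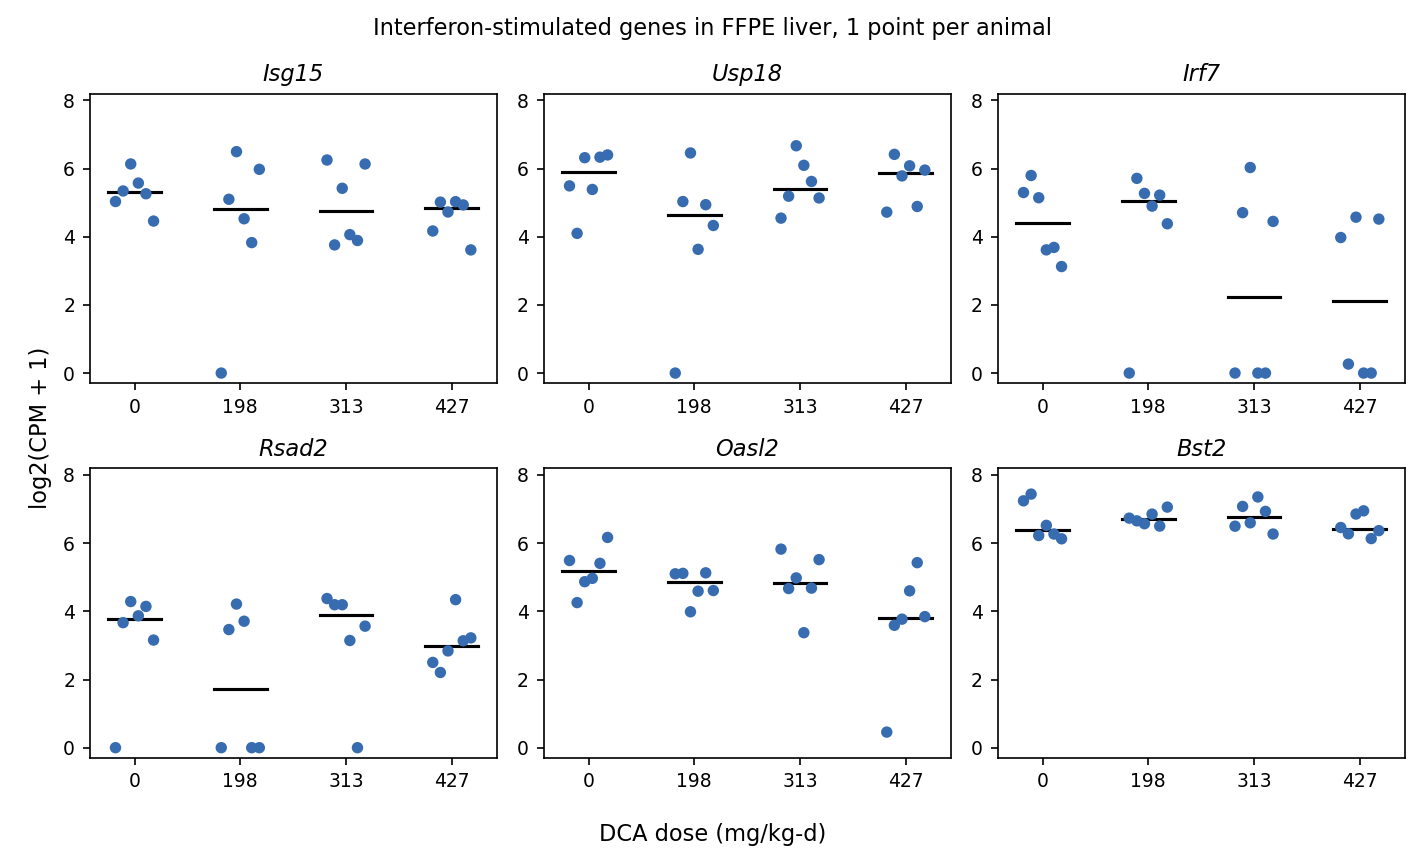
FFPE level of the 6 listed genes, as log2(CPM + 1), against DCA dose in mg/kg-d. Each point is 1 animal, 6 per dose, and lines are medians. Values at 0 occur for Isg15, Usp18, Irf7 and Rsad2, and treated groups overlap the controls for every gene.

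By limma 1, 0 and 1 members had an unadjusted p under 0.05 at 198, 313 and 427 mg/kg-d in FFPE, and the exact rank sum test gave 0, 0 and 2, with none after adjustment. Of all FFPE genes 0.0300%, 0.315% and 0.869% were called lower at these doses and 0.659% had a negative slope, so few genes of any kind were called there. The response in FFPE was compared with that in FROZ through the difference between the 2 libraries of each animal. No member differed at an FDR of 0.05 by limma at any dose, as compared with 0.0303%, 0.00% and 0.0303% of the 6591 shared genes. No member had an unadjusted limma p under 0.05 either. At that cut 793, 540 and 157 of the 6591 genes differed at 198, 313 and 427 mg/kg-d. The interval for Isg15 at 427 mg/kg-d ran from -0.95 to 2.03 (95%, FFPE minus FROZ), and that for Bst2 from -0.60 to 0.58. The interval for Irf7 was the widest, from -3.88 to 1.10.

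Within doses, FROZ and FFPE values of the same animal had a Pearson r of 0.36 for Bst2, 0.28 for Oasl2, 0.27 for Isg15, -0.03 for Irf7, -0.07 for Usp18 and -0.18 for Rsad2 over 24 animals. The median over shared genes was 0.09. The libraries of an animal came from different pieces of liver, and these values are descriptions.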

How the data were processed

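TempO-Seq was measured in 48 liver libraries of 24 mice. The deposited values are log2(CPM + 1), computed by the authors separately for FROZ and FFPE. Reads were aligned to mm10 with STAR (version 2.6 in the submitters' processing notes) in Partek, and counted on RefSeq transcripts by expectation maximization. Genes with a low geometric mean were removed before scaling. A fold change on this scale understates that of low genes. CPM were recovered from the log2 values. The CPM of 1 read was the step of the low values, which were whole reads within 0.1 for 96.5 to 97.5% of low values in FROZ and 85.7 to 95.8% in FFPE. Depth covers counting error only, since reads carry no molecular identifiers.

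Groups came from the sample titles. limma 3.58.1 in R 4.3.3 was fitted on the 24 libraries of a table, with the variance prior trended on the mean level, and tested on simulated data. All genes of a table were tested, and 0 columns of values were left unused. FFPE and FROZ libraries were paired by animal, as the labels give it. Members and gene lists were chosen with earlier results of these data known. All 9 members are named. Of lists over 12 genes, named genes include the 4 largest changes at 427 mg/kg-d and genes without overlap with controls. Genes that make up a small count are named too, as are some that were not listed. Lists used for counts were read in FROZ, since no listed gene of the pathway lists passed in FFPE. Promoters are from RefSeq (GRCm38.p6).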

Additional observations from a re-analysis of the deposited data

Results flagged for a closer look

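Values that stood apart from the other animals of their group were sought by Dixon's criterion (95% level, on the gap to the next animal over the range) in 60 groups, and 5 were found, where chance flags about 1 group in 20. In FROZ, control animal 3 had an Oasl2 value of 4.20 on the log2(CPM + 1) scale, above the next control at 3.88. The other 4 were low values in FFPE. Irf7 was at 0 in animal 49 (198 mg/kg-d), where the next lowest was 4.38. Oasl2 was at 0.457 in animal 97 (427 mg/kg-d), where the next was 3.59. Rsad2 was at 0 in control animal 3, with the next at 3.16, and at 0 in animal 77 (313 mg/kg-d), with the next at 3.14. The FFPE libraries of animals 49, 3, 77 and 97 had 1580, 791, 851 and 87 genes at 0. Whether these values come from the library or the tissue was not tested. Animal 74, the lowest of its dose for all 9 members in FROZ, was not among the 5.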

How the results depend on the processing

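The counts of 7 members lower at 427 mg/kg-d and 7 with a negative slope in FROZ held under every alternative run. The count of 0 at 198 mg/kg-d did likewise, although the exact rank sum test could hardly call a gene there. At 313 mg/kg-d against controls the exact rank sum test called 4 members and a fit of the 2 groups alone 6, and leaving out each animal gave 5 (without animal 74 or 76) to 8. Usp18 was the member added in the count of 8, without animal 5, 8, 77 or 78 (limma FDR 0.024 to 0.0484). It was also added with median-ratio scaling (limma FDR 0.0277). From 198 to 313 mg/kg-d the count of 2 became 4 with median-ratio scaling and 4 among genes averaging 5 CPM or more, and 1 to 4 on leaving out each animal. The 1 was reached without animal 50, 51, 53, 74, 76 or 77, and the 4 without animal 78. The count above 2-fold at 427 mg/kg-d was 5 with median-ratio scaling and 2 to 4 on leaving out each animal (4 without animal 101). At 313 mg/kg-d it was 0 to 3, with 0 without animal 74, 1 without animal 3, 5, 7, 76 or 77 and 3 without animal 78. Median-ratio scaling moved the median of all genes from 0.10 to -0.01 at 427 mg/kg-d. Between 313 and 427 mg/kg-d no alternative called a member lower. Uncalled members changed sign: in FROZ, leaving out each animal put Bst2 at -0.18 to 0.053 at 313 mg/kg-d (above 0 without control animal 3) and Usp18 at -0.14 to 0.086 at 427 mg/kg-d (above 0 without animal 97 or 4). In FFPE at 427 mg/kg-d, Rsad2 was at 0.30 with an offset of 0.1 CPM and Bst2 at 0.063 with array quality weights. The cause was not tested.

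FFPE counts stayed at 0 under every alternative, also without animals 49 and 73, an alternative chosen after seeing the data. The exact rank sum test among them could hardly call a gene there. For the comparison of FFPE with FROZ, a fit with no replicate block (unpaired) called 0 members at each dose, as did the paired fit. Standard errors at 427 mg/kg-d were larger in FFPE than in FROZ for every listed member (Isg15, 0.77 against 0.19), which limits what can be detected in FFPE. The part of values at 0 in this was not tested.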
